A study of Homo sapiens and Mus musculus with 57 samples.

Results

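A set of 10 genes widely used as readouts of low oxygen and of glycolysis was followed through 4 human cancer cell lines treated with inhibitors of the SUMO activating enzyme. They are PDK1, LDHA, PFKFB3, PFKFB4, BNIP3, CA9, ANKRD37, EGLN3, VEGFA and ADM. The genes were taken by the symbols in the files' gene column, and 10 of the 30373 gene entries in each human table carry one of these symbols. TAK-981 and ML-792 are small molecules that block the enzyme which starts the attachment of SUMO, a small ubiquitin-like protein, to other proteins.

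The human libraries come from 11 groups of 3 cultures each, 33 in all. THP-1, an acute monocytic leukaemia line, received 1 µM TAK-981 or the solvent DMSO. HCT116 and Colo205, which are colorectal carcinoma lines, and MDA-MB-231, a breast carcinoma line, received 1 µM TAK-981, 1 µM ML-792 or DMSO. Every culture was harvested at 16 h, and polyA RNA was sequenced. Each line is 1 established line, and nothing in the labels says that its cultures were set up on separate days, so p-values measure only how far these cultures differ, and that spread may be technical. The labels name no low-oxygen treatment, and the measurements are of mRNA only.

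Cells sense oxygen through the hypoxia-inducible factors HIF-1 and HIF-2, whose alpha subunits are hydroxylated by prolyl hydroxylases when oxygen is present, bound by the VHL ubiquitin ligase and destroyed. When oxygen falls the alpha subunit persists, pairs with ARNT and binds short sites near its target genes. Those targets push glucose towards lactate, remove acid, trim mitochondria and call in blood vessels, and many tumour lines express part of the programme in ordinary culture. Several HIF pathway proteins are known SUMO substrates, which is the background against which these genes are of interest in cells given these inhibitors.

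The core of the site that HIF binds reads ACGTG or GCGTG. Promoter windows from RefSeq, build GRCh38.p14, running from 250 bases before to 50 bases after each start, were available for 9 of the 10 genes, in 12 windows. VEGFA had none in that table. Both letter strings were searched on both strands. ACGTG was present in 6 windows belonging to 6 genes, PDK1, BNIP3, PFKFB3, LDHA, ANKRD37 and CA9, and 21.4% of all 35116 windows of that length hold it. At least 1 of the strings was present in 10 windows of 8 genes, against 48.4% of all windows. PFKFB4 and ADM held GCGTG only, which 36.5% of all windows hold, and EGLN3 held neither string in this window. For each of the 6 genes 1 stretch with ACGTG is shown, so that the letters can be set beside its response; LDHA holds a further CACGTG at bases -185 to -180 from the start that is not shown. Capitals mark ACGTG or its reverse complement CACGT, and CACGTG, where it occurs, is 1 match on each strand and also spells the E-box read by MYC and USF proteins.
PDK1, chr2:172556060-172556089, plus strand: ccctgctgcccgcCACGTccctCACGTacc
LDHA, chr11:18394468-18394497, plus strand: ccgactcaCACGTGggttcccgCACGTccg
PFKFB3, chr10:6202804-6202849, plus strand: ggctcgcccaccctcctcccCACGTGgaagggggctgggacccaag
BNIP3, chr10:131982032-131982077, minus strand: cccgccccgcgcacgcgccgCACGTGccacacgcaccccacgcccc
CA9, chr9:35673897-35673926, plus strand: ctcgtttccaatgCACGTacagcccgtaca
ANKRD37, chr4:185396673-185396702, plus strand: gggctcCACGTGccagtgtttgtgtACGTG
A match of letters is a description of the sequence and does not show that HIF bound there in these cells. The PDK1, LDHA, ANKRD37 and CA9 stretches overlap annotated exons of their own genes, and those of PDK1 and CA9 also overlap an exon of another gene, AC078883.1 and ARHGEF39.

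**Figure D1:**
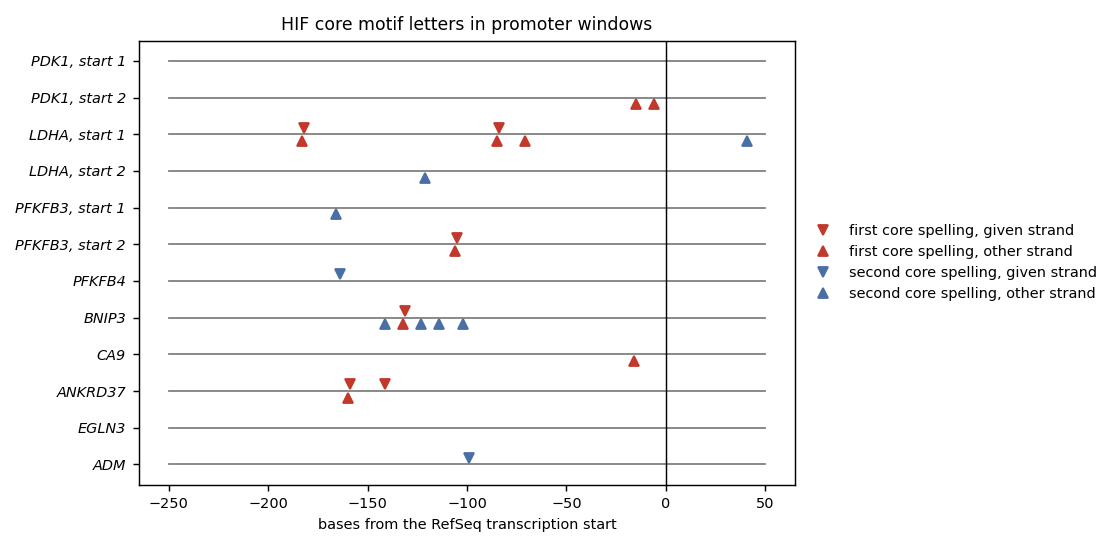
Positions of the HIF core letters in 12 RefSeq promoter windows of 9 genes, as bases from the transcription start, with matches on the given strand above each line and on the other strand below it. The first spelling is ACGTG and the second is GCGTG; BNIP3 and the first LDHA window carry the most matches, and EGLN3 and the first PDK1 window carry none.

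The libraries held between 17336368 and 25807864 counts and between 16859 and 18189 detected genes. No pair of libraries within a group was identical, and all 33 within-group pairs differed by more than sampling noise, with chi-square per degree of freedom of 2.13 to 19.0. Mitochondrially encoded genes took 15.5% ± 1.75 of counts in THP-1 cells with TAK-981, against 7.38% ± 0.215 with DMSO (SD, n = 3 each). Myeloid markers fitted the THP-1 label, with 7 of 8 above 1 FPKM in both groups, but their summed level was lower with TAK-981, at 521 to 573 FPKM against 976 to 1041 FPKM with DMSO. Its members went both ways, 3 of 8 higher and 3 lower: LYZ and MPO fell, at -1.83 and -1.84, and CD14 and PTPRC rose, at 2.39 and 0.73. In Colo205 cells 1 of 8 myeloid markers was above 1 FPKM with DMSO, and 9 of 10 epithelial markers were; that myeloid gene, LYZ, averaged 1188 ± 51.9 FPKM (SD, n = 3), so the summed myeloid level of Colo205 with DMSO, 1129 to 1219 FPKM, was above that of THP-1. By the same count, in HCT116 cells 7 of 10 epithelial and 4 of 6 mesenchymal markers were above 1 FPKM. In MDA-MB-231 cells 5 of 10 epithelial and 5 of 6 mesenchymal markers were. Of the mesenchymal markers, 4 of 6 were also above 1 FPKM in THP-1 and 2 of 6 in Colo205. The summed mesenchymal markers were lower in every treated library than in the DMSO libraries of its line. They were at 48.8 to 54.3 FPKM with TAK-981 in THP-1, against 72.6 to 80.7 FPKM with DMSO. In HCT116 they were at 308 to 325 with TAK-981 and 325 to 329 with ML-792, against 382 to 414 with DMSO. In Colo205 they were at 25.4 to 27.1 and 24.9 to 27.9 FPKM with TAK-981 and ML-792, against 52.9 to 53.3 FPKM with DMSO. In MDA-MB-231 they were at 2209 to 2355 and 2162 to 2208 FPKM with those compounds, against 2404 to 2557 FPKM with DMSO. Those sums do not stand for each marker: CD44 fell in every line with each compound given, and was the one mesenchymal marker called lower in HCT116 and Colo205. CAV1 rose in Colo205, at 0.47 with TAK-981 and 0.36 with ML-792. The summed epithelial markers of MDA-MB-231 were lower, at 823 to 850 FPKM with TAK-981 and 807 to 826 FPKM with ML-792, against 1013 to 1080 FPKM with DMSO. In Colo205 they were higher, at 5087 to 5132 and 5223 to 5688 FPKM with those compounds, against 4697 to 5017 FPKM with DMSO. These sums also do not stand for each marker. In Colo205 4 of 10 were called higher and 1 lower with TAK-981, and 6 and 1 with ML-792, LGALS4 falling at -0.40 and -0.38. In MDA-MB-231 1 of 6 tested was called higher and 4 lower with each compound. The part of these shifts in the results below was not tested, and in bulk cultures fewer cells and less RNA per cell cannot be told apart. The library of HCT116 replicate 1 with TAK-981 lay apart on the second principal component of that line, with a score of -35.4, against -9.70 to 19.9 for the other 8 HCT116 libraries. FPKM, the fragment count divided by transcript length and library depth, is the deposited level that is comparable between genes of different length. Fold changes and tests below come instead from counts scaled by the trimmed mean of M-values. In THP-1 the 2 scales are offset: with TAK-981 the median gene was 0.22 higher on the log2 FPKM scale than on the scaled count scale, while the offset was between -0.03 and 0.02 in every other comparison.

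**Figure D2:**
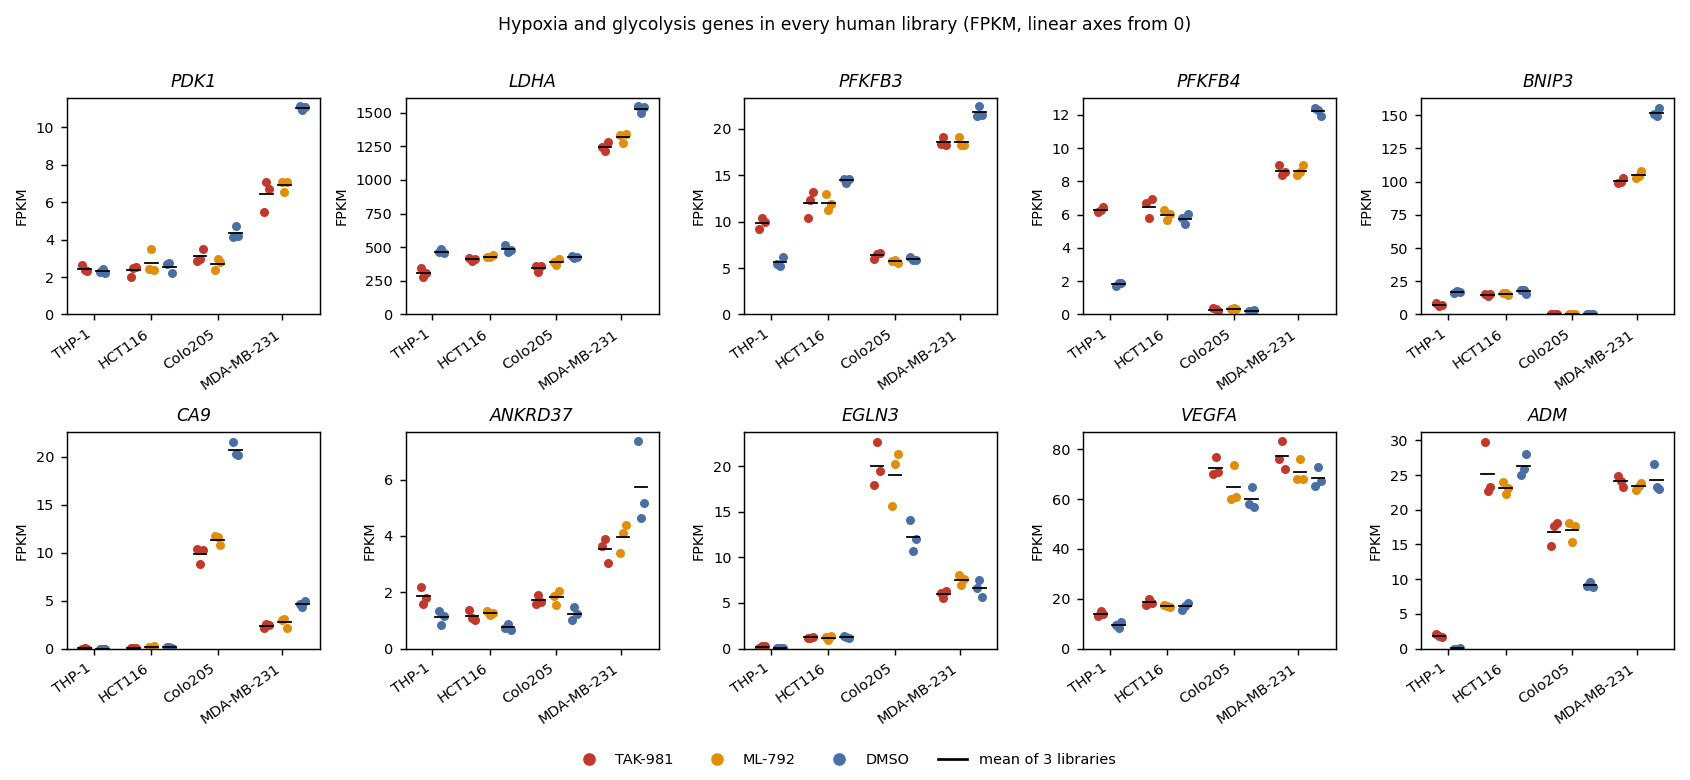
FPKM of each gene in all 33 human libraries, 1 panel per gene, with a linear axis from 0; points are cultures and bars are means of 3. With DMSO, MDA-MB-231 stands highest for 7 genes, Colo205 for EGLN3 and CA9, and HCT116, overlapping MDA-MB-231, for ADM.

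With DMSO alone the lines already differed widely in these genes. For THP-1 the line and its culture plate format cannot be told apart. The level differed between the 4 lines for 10 of 10 genes by edgeR's quasi-likelihood test of all lines together, at adjusted p of 3.01e-15 or lower, as it did for 98.6% of the 17473 genes tested. MDA-MB-231 had the highest mean FPKM for 7 genes, and THP-1 the lowest for 6. BNIP3 averaged 152 ± 3.01 FPKM in MDA-MB-231, 17.5 ± 1.68 in HCT116, 16.96 ± 0.918 in THP-1 and 0.181 ± 0.0479 in Colo205, and only the HCT116 and THP-1 libraries overlapped. PFKFB4 followed the same order of lines, at 12.2 ± 0.259, 5.75 ± 0.299, 1.83 ± 0.0960 and 0.196 ± 0.0739 FPKM, with no overlap between neighbours. LDHA was the most abundant of the 10 in every line, at 1527 ± 27.1 FPKM in MDA-MB-231, 485 ± 26.4 in HCT116, 467 ± 14.1 in THP-1, which overlapped HCT116, and 427 ± 5.56 in Colo205. On scaled counts BNIP3 and LDHA were instead lower in HCT116 than in THP-1, at log2 differences of -0.22 and -0.17 (edgeR fit of all lines, adjusted p = 0.00657 and 0.0089), so that order depends on the scale. PDK1 averaged 11.05 ± 0.0895 FPKM in MDA-MB-231, 4.35 ± 0.323 in Colo205, 2.56 ± 0.298 in HCT116 and 2.32 ± 0.110 in THP-1, the last pair overlapping. PFKFB3 averaged 21.8 ± 0.607 FPKM in MDA-MB-231, 14.5 ± 0.244 in HCT116, and 5.995 ± 0.182 in Colo205 and 5.61 ± 0.512 in THP-1, which overlapped (SD, n = 3 for each). On scaled counts PFKFB3 was called higher in Colo205 than in THP-1, at 0.39 (edgeR fit of all lines, adjusted p = 0.000106).

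The acid-base enzyme and the oxygen sensor were ordered differently. CA9 averaged 20.7 ± 0.721 FPKM in Colo205 and 4.63 ± 0.309 in MDA-MB-231, against 0.110 ± 0.0390 in HCT116, and it was at 0 counts in all 3 THP-1 libraries, where a count of 0 allows up to 3 counts, or 0.155 to 0.165 CPM, counts scaled to library depth. EGLN3 averaged 12.3 ± 1.73 FPKM in Colo205, 6.59 ± 0.891 in MDA-MB-231, 1.29 ± 0.0990 in HCT116 and 0.0582 ± 0.0313 in THP-1, with no overlap between neighbours. VEGFA averaged 68.5 ± 4.03 FPKM in MDA-MB-231, 59.9 ± 4.18 in Colo205, 16.96 ± 1.38 in HCT116 and 9.55 ± 1.20 in THP-1, with no overlap between neighbours. ADM averaged 26.3 ± 1.57 FPKM in HCT116 and 24.3 ± 1.98 in MDA-MB-231, which overlapped, then 9.16 ± 0.424 in Colo205, and it had 1 count in 3 THP-1 libraries. ANKRD37 averaged 5.73 ± 1.44 FPKM in MDA-MB-231, and 1.23 ± 0.228 in Colo205, 1.11 ± 0.256 in THP-1 and 0.753 ± 0.0979 in HCT116, each of which overlapped its neighbour (SD, n = 3 for each). On scaled counts ANKRD37 was called lower in HCT116 than in THP-1, at -0.83 (edgeR fit of all lines, adjusted p = 0.00337).

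With TAK-981, 4 of the 8 genes tested in THP-1 rose and 2 fell, while 69.4% of all 14526 genes tested were called there, 35.5% higher and 33.9% lower. In HCT116, 1 of 9 fell and 0 rose, with 14.4% of all 14563 genes called, 7.66% higher and 6.73% lower. In Colo205, 3 of 9 rose and 3 fell, with 35.9% of 14152 genes called, 17.9% higher and 18% lower. In MDA-MB-231, 7 of 10 fell and 0 rose, where 20.2% of 13976 genes were called, 10.6% higher and 9.52% lower. A gene was called at an adjusted p under 0.05 in edgeR's quasi-likelihood test, adjusted by Benjamini-Hochberg over all genes tested in the line. Treated and DMSO groups without overlap on scaled counts were common. They made up 72.1% of all genes tested in THP-1, 32.5% in HCT116, 50% in Colo205 and 34.6% in MDA-MB-231. Of the tested members, 5 lay all above and 2 all below DMSO in THP-1, 2 and 2 in HCT116, 4 and 3 in Colo205, and 0 and 7 in MDA-MB-231. The median change of the tested genes was 0.40 on the log2 scale in THP-1, -0.05 in HCT116, 0.27 in Colo205 and -0.40 in MDA-MB-231, against medians of 0.03, 0.00, 0.00 and 0.00 over all genes tested. EGLN3 and CA9 in THP-1, CA9 in HCT116 and BNIP3 in Colo205 were below the count filter and were not tested. No gene was called in the same direction in all 4 lines except LDHA, which fell in each. Its call in HCT116, at edgeR adjusted p = 0.0439, was kept in 1 of 6 fits that left out a library and in 5 of 8 other alternatives.

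**Figure D3:**
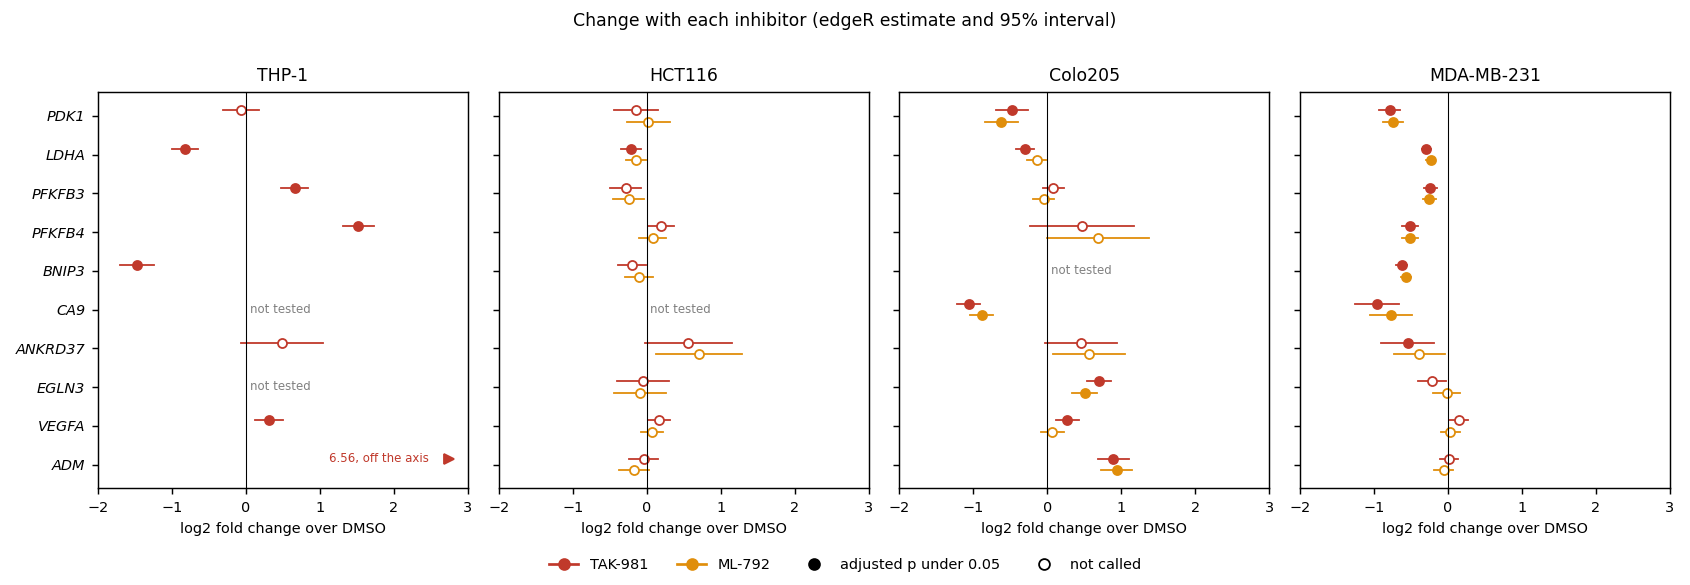
Log2 fold change over DMSO with its 95% interval for TAK-981 and ML-792 in each line; filled points passed an adjusted p of 0.05 and open points did not. In MDA-MB-231 all called genes lie left of 0, in THP-1 PFKFB4 and BNIP3 lie on opposite sides at 1.52 and -1.47, and ADM in THP-1, at a fitted 6.56, lies off the axis.

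PDK1 encodes pyruvate dehydrogenase kinase 1, which shuts the entry of pyruvate into mitochondrial oxidation. In MDA-MB-231 it stood at 5.45, 7.10 and 6.71 FPKM with TAK-981 and 7.10, 6.53 and 7.07 FPKM with ML-792, against 11.1, 10.9 and 11.1 FPKM with DMSO. All treated cultures lay below all control cultures. The fall was 0.79 on the log2 scale with TAK-981 (log2 fold change -0.79, SE 0.0652, edgeR adjusted p = 2.77e-07) and the change with ML-792 was -0.74 (SE 0.0642, edgeR adjusted p = 4.32e-07). In Colo205 it stood at 2.84, 2.97 and 3.49 FPKM with TAK-981 and 2.37, 2.94 and 2.81 FPKM with ML-792, against 4.15, 4.72 and 4.17 FPKM with DMSO, again without overlap. The log2 changes there were -0.48 (SE 0.101, edgeR adjusted p = 0.00214) and -0.62 (SE 0.102, edgeR adjusted p = 3e-04). In THP-1 and HCT116 it was not called, at -0.06 and -0.15 with TAK-981 and, in HCT116, 0.02 with ML-792, and the libraries overlapped.

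LDHA encodes the lactate dehydrogenase subunit that turns pyruvate into lactate. In THP-1 it stood at 344, 277 and 306 FPKM with TAK-981, against 462, 483 and 456 FPKM with DMSO. Every treated library lay below every control library, and the log2 change was -0.82 (SE 0.0800, edgeR adjusted p = 4.92e-07). MDA-MB-231 libraries had LDHA at 1247, 1213 and 1282 FPKM with TAK-981 and 1332, 1276 and 1339.6 FPKM with ML-792, against 1546, 1496 and 1539 FPKM with DMSO. The changes were small but larger than the spread, at -0.29 (SE 0.0293, edgeR adjusted p = 2.41e-06) and -0.23 (SE 0.0292, edgeR adjusted p = 2.76e-05). Colo205 libraries had LDHA at 360, 318 and 362 FPKM with TAK-981 and 387, 367 and 409 FPKM with ML-792, against 433, 422 and 426 FPKM with DMSO. The change with TAK-981 was -0.30 (SE 0.0579, edgeR adjusted p = 0.00114). That with ML-792 was -0.14 and not called at adjusted p = 0.0615, but it was called with the replicate number as a block, at adjusted p = 0.00457, with DESeq2 at 0.0448, without the count filter at 0.0376 and without ML-792 replicate 3 at 0.0381. In HCT116 the change with TAK-981 was -0.21 (SE 0.0641, edgeR adjusted p = 0.0439). It was lost in 5 of the 6 fits that left out a library, kept without TAK-981 replicate 1 at adjusted p = 0.0201, and lost with only those 2 groups in the fit, at 0.116, and without the count filter, at 0.0527. With ML-792 it was not called there, at -0.14 (edgeR adjusted p = 0.181).

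PFKFB3 and PFKFB4 encode enzymes that set the level of fructose 2,6-bisphosphate, an activator of glycolysis. They moved in opposite directions in THP-1 and MDA-MB-231. PFKFB4 in THP-1 stood at 6.14, 6.30 and 6.49 FPKM with TAK-981, against 1.72, 1.87 and 1.90 FPKM with DMSO. The treated libraries were far above the controls, at a log2 change of 1.52 (SE 0.0994, edgeR adjusted p = 8.82e-09), or 2.87-fold. PFKFB4 in MDA-MB-231 stood at 8.98, 8.38 and 8.59 FPKM with TAK-981 and 8.39, 8.58 and 8.98 FPKM with ML-792, against 12.4, 12.3 and 11.9 FPKM with DMSO. All treated libraries were lower, at changes of -0.51 with each compound (SE 0.0512 and 0.0506, edgeR adjusted p = 2.72e-06 and 2.15e-06). In HCT116 it was not called, with log2 changes of 0.20 under TAK-981 and 0.08 under ML-792. In Colo205 it had 10 to 27 counts per library and was not called, at 0.47 with TAK-981 and 0.68 with ML-792 (edgeR adjusted p = 0.286 and 0.104). Leaving out 1 library moved these to between 0.25 and 0.82 and between 0.46 and 1.03, the lowest without DMSO replicate 2 and the highest without DMSO replicate 3, where the ML-792 change was called, at adjusted p = 0.0407.

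PFKFB3 showed the same split at a smaller size. In THP-1 it stood at 9.21, 10.4 and 9.98 FPKM with TAK-981, against 5.40, 5.25 and 6.20 FPKM with DMSO, with a log2 change of 0.66 (SE 0.0845, edgeR adjusted p = 8.28e-06). In MDA-MB-231 it stood at 18.3, 19.1 and 18.3 FPKM with TAK-981 and 19.1, 18.2 and 18.3 FPKM with ML-792, against 21.3, 22.5 and 21.5 FPKM with DMSO. No library overlapped between treated and control, and the changes were -0.24 and -0.25 (SE 0.0426 and 0.0424, edgeR adjusted p = 0.000777 and 0.000441). In HCT116 the treated libraries were also all below the controls, at 10.4, 12.3 and 13.2 FPKM with TAK-981 and 13.02, 11.2 and 11.9 FPKM with ML-792, against 14.6, 14.2 and 14.6 FPKM with DMSO. Groups without overlap on scaled counts made up 32.5% of all genes tested there with TAK-981 and 33.1% with ML-792. The changes of PFKFB3, -0.29 with TAK-981 and -0.24 with ML-792, were not called, at edgeR adjusted p of 0.0697 and 0.138. The first was called by DESeq2, at adjusted p = 0.0451, by edgeR without the count filter, at 0.0458, and without TAK-981 replicate 3, at 0.0326. It was called in none of the other alternatives, and without TAK-981 replicate 1, the library that lay apart, it was -0.16 at adjusted p = 0.14. The change with ML-792 was called with only those 2 groups in the fit, at adjusted p = 0.0263. In Colo205 PFKFB3 was not called, with TAK-981 at 0.08 or ML-792 at -0.05, and the libraries overlapped.

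BNIP3 encodes a mitochondrial outer membrane protein that takes part in mitophagy. In THP-1 it stood at 8.31, 6.51 and 7.08 FPKM with TAK-981, against 16.3, 18.01 and 16.5 FPKM with DMSO. Treated libraries held less than any control, and the log2 change was -1.47 (SE 0.105, edgeR adjusted p = 2.08e-08), the lowest of the tested members in any line. In MDA-MB-231 BNIP3 was at 99.1, 99.7 and 103 FPKM with TAK-981 and 103, 104 and 108 FPKM with ML-792, against 151, 149.7 and 155 FPKM with DMSO. The changes there were -0.62 (SE 0.0340, edgeR adjusted p = 2.58e-09) and -0.56 (SE 0.0338, edgeR adjusted p = 7.15e-09). In HCT116 it was not called, at -0.20 and -0.10. In Colo205 it was nearly silent, with 19 counts over 3 libraries with TAK-981 against 18 with DMSO. BNIP3 shares sequence with processed pseudogenes and had fractional counts in 33 of 33 libraries, so part of its reads may be divided with copies. Mitochondrially encoded transcripts took a larger share of counts with TAK-981 in THP-1. With those genes left out the BNIP3 change was -1.47, and on the log2 FPKM scale with a pseudocount of 0.1 it was -1.21. Over the alternatives other than leaving out a library it ran from -1.50 to -1.12, called in each. What part the mitochondrial share had in this change was not tested.

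CA9 encodes carbonic anhydrase IX, a surface enzyme that handles acid from glycolysis and is among the best known HIF-1 targets. It fell in both lines that express it. In Colo205 it stood at 10.4, 8.86 and 10.2 FPKM with TAK-981 and 11.7, 11.6 and 10.8 FPKM with ML-792, against 21.5, 20.4 and 20.2 FPKM with DMSO. The treated level lay well apart from the controls, at log2 changes of -1.07 (SE 0.0743, edgeR adjusted p = 1.46e-07) and -0.89 (SE 0.0737, edgeR adjusted p = 7.87e-07). In MDA-MB-231 CA9 was at 2.18, 2.52 and 2.47 FPKM with TAK-981 and 3.02, 3.07 and 2.13 FPKM with ML-792, against 4.67, 4.30 and 4.92 FPKM with DMSO. Again no library overlapped, at -0.95 (SE 0.141, edgeR adjusted p = 0.000135) and -0.77 (SE 0.136, edgeR adjusted p = 0.000661). CA9 lies across from ARHGEF39 on the other strand and had fractional counts in 26 of 33 libraries, and whether the counting used strand is not given.

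ANKRD37 encodes a small ankyrin repeat protein and is a HIF-1 target. In MDA-MB-231 it stood at 3.64, 3.90 and 3.04 FPKM with TAK-981 and 3.39, 4.09 and 4.39 FPKM with ML-792, against 7.36, 4.64 and 5.18 FPKM with DMSO. The change with TAK-981 was -0.54 (SE 0.168, edgeR adjusted p = 0.0306), and it was lost without DMSO replicate 1 at adjusted p = 0.137, without TAK-981 replicate 1 or 3 at 0.0624 and 0.128, and with DESeq2 at 0.0573. The change with ML-792, -0.39, was not called at edgeR adjusted p = 0.0993. In the other lines the estimates lay above 0 and were not called by edgeR with all libraries, at 0.49 in THP-1, 0.57 in HCT116 and 0.45 in Colo205 with TAK-981, and at 0.71 in HCT116 and 0.57 in Colo205 with ML-792. The last was called by edgeR without ML-792 replicate 2, at adjusted p = 0.0403. On the log2 FPKM scale with a pseudocount of 0.1, limma called ANKRD37 higher in THP-1 with TAK-981, at adjusted p = 0.00935, in HCT116 with ML-792, at 0.0257, and in Colo205 with TAK-981 and ML-792, at 0.0488 and 0.0214. It called the gene lower in MDA-MB-231 with ML-792, at adjusted p = 0.0481. The gene had 13.1 to 40.1 estimated counts per library in those 3 lines, overlaps UFSP2 on the other strand and had fractional counts in 33 of 33 libraries.

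EGLN3 encodes prolyl hydroxylase PHD3, both a HIF target and an enzyme that marks HIF-alpha for destruction. It rose in Colo205, where it stood at 17.9, 22.6 and 19.5 FPKM with TAK-981 and 15.6, 20.2 and 21.3 FPKM with ML-792, against 14.1, 10.7 and 12.0 FPKM with DMSO. The groups did not overlap, at log2 changes of 0.70 (SE 0.0777, edgeR adjusted p = 1.18e-05) and 0.50 (SE 0.0786, edgeR adjusted p = 0.000198). In MDA-MB-231 it stood at 6.09, 5.55 and 6.35 FPKM with TAK-981, against 6.63, 7.47 and 5.68 FPKM with DMSO. That change, -0.22, was not called at edgeR adjusted p = 0.0996 and was called with the replicate number as a block at adjusted p = 0.046 and without DMSO replicate 3 at 0.0355. It was -0.13 without DMSO replicate 1, at adjusted p = 0.362, and -0.13 on the log2 FPKM scale with a pseudocount of 0.1, at 0.411. It was also not called in MDA-MB-231 with ML-792, at -0.01, or in HCT116, at -0.05 with TAK-981 and -0.09 with ML-792. In THP-1 it had 25 counts over 3 libraries with TAK-981 and 8 with DMSO, and the libraries overlapped. The ratio was 2.71 after scaling, with a 95% exact counting interval of 1.18 to 6.94, which covers counting error only. Without the count filter the log2 change was 1.38 (SE 0.659, edgeR adjusted p = 0.0827) and not called.

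VEGFA and ADM encode secreted ligands, the first a vessel growth factor and the second the vasodilator peptide adrenomedullin. ADM was almost absent from THP-1 cells with DMSO, at 0, 0 and 1 counts, and had 57, 47 and 43 counts with TAK-981. This is 2.07, 1.85 and 1.63 FPKM with TAK-981 against 0, 0 and 0.0380 FPKM with DMSO, so the treated level was still below the 9.16 FPKM of Colo205 controls. The count ratio was 127 after scaling, with a 95% exact counting interval of 22.5 to 5064. The fitted log2 change of 6.56 (edgeR adjusted p = 9e-08) depends on the prior count and is 8.53 without DMSO replicate 6. On the log2 FPKM scale it is 4.12 with a pseudocount of 0.1 and 1.49 with a pseudocount of 1. In Colo205 ADM stood at 14.8, 17.6 and 18.1 FPKM with TAK-981 and 18.03, 15.3 and 17.7 FPKM with ML-792, against 8.96, 9.64 and 8.86 FPKM with DMSO. It rose with both compounds, without overlap, by 0.90 (SE 0.0971, edgeR adjusted p = 9.59e-06) and 0.94 (SE 0.0972, edgeR adjusted p = 6.36e-06). In HCT116 and MDA-MB-231, where it was highest to begin with, it was not called, at -0.04 and 0.02 with TAK-981 and -0.17 and -0.06 with ML-792.

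VEGFA moved little. In THP-1 it stood at 13.3, 14.9 and 13.9 FPKM with TAK-981, against 9.45, 8.41 and 10.8 FPKM with DMSO. The log2 change on scaled counts was 0.32 (SE 0.0879, edgeR adjusted p = 0.00549), it was 0.55 on the log2 FPKM scale, and without DMSO replicate 5 it was not called, at adjusted p = 0.055. In Colo205 it stood at 70.1, 76.9 and 70.9 FPKM with TAK-981 and 60.2, 73.6 and 60.8 FPKM with ML-792, against 58.0, 64.7 and 57.0 FPKM with DMSO. TAK-981 libraries lay above the controls, at 0.27 (SE 0.0736, edgeR adjusted p = 0.0103), a call lost without DMSO replicate 3 at adjusted p = 0.0524, whereas ML-792 libraries overlapped the controls, at 0.07. In MDA-MB-231 the TAK-981 libraries, at 76.3, 83.2 and 72.2 FPKM, overlapped those with DMSO, at 65.3, 73.0 and 67.2 FPKM. That change, 0.14, was not called at edgeR adjusted p = 0.108, and was called with the replicate block at adjusted p = 0.00493, without the count filter at 0.0379 and without DMSO replicate 2 at 0.0235. With ML-792 it was 0.03 and not called. In HCT116 VEGFA was not called, at 0.16 with TAK-981 (edgeR adjusted p = 0.138) and 0.07 with ML-792; the TAK-981 libraries lay above those with DMSO on scaled counts but overlapped them in FPKM.

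The lines responded differently to TAK-981 in 8 of the 10 genes by edgeR's quasi-likelihood test of the line-by-treatment difference in 1 fit of all human libraries, where 59.3% of 17473 genes were called. The exceptions were VEGFA, at adjusted p = 0.201, and CA9, at adjusted p = 0.368, the second of which has next to no counts in THP-1 and HCT116. BNIP3 in Colo205 and EGLN3 in THP-1 were below the filter of their own line and entered this fit through the other lines, so differences that involve them there rest on few counts. In every contrast with THP-1 the line and its culture plate format cannot be told apart. HCT116 differed from THP-1 in 6 genes, higher in 2 and lower in 4, with 48.1% of all genes called, 21.5% higher and 26.6% lower. PFKFB4, PFKFB3, ADM and, on few THP-1 counts, EGLN3 were the lower ones, PFKFB4 at -1.39 and PFKFB3 at -1.01, and BNIP3 and LDHA the higher, at 1.21 and 0.55. Colo205 differed from THP-1 in 6 genes, with 44.8% of all genes called, 20.7% higher and 24.1% lower. There PDK1 was lower at -0.49 in place of EGLN3, which was not called at -0.77 (edgeR adjusted p = 0.255). The other 5 genes and their directions were those of HCT116, BNIP3 and PFKFB4 on few Colo205 counts. MDA-MB-231 differed from THP-1 in 8 genes, with 46.7% of all genes called, 20.3% higher and 26.3% lower. Its response was lower in 6 of them, EGLN3 again on few THP-1 counts, and among them PFKFB4, at a difference of -2.11 (SE 0.119, edgeR adjusted p = 3.93e-16). BNIP3 and LDHA ran the other way, at 0.77 and 0.45, their falls being deeper in THP-1. Against HCT116, MDA-MB-231 had a lower response in 4 genes, PDK1, BNIP3, PFKFB4 and ANKRD37, with 8.17% of all genes called, 3.85% higher and 4.32% lower. The differences were -0.66, -0.44, -0.72 and -1.12, at edgeR adjusted p of 0.00378, 0.00243, 2.82e-05 and 0.0158.

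Colo205 and MDA-MB-231, in both of which PDK1 and CA9 fell, differed in other genes. The response was lower in MDA-MB-231 than in Colo205 in 5 genes, with 12.2% of all genes called, 5.46% higher and 6.76% lower: PFKFB4 at -0.99, PFKFB3 at -0.33, ADM at -0.89, ANKRD37 at -1.01 and EGLN3 at -0.93. The highest adjusted p of these was that of PFKFB3, at edgeR adjusted p = 0.0377. The PFKFB4 difference rests on few Colo205 counts, 10 to 20 per DMSO library and 14 to 24 per TAK-981 library. Its own change in Colo205 was not called. For LDHA the difference was 0.00, with a 95% interval of -0.18 to 0.17, and for CA9 it was 0.10, with an interval of -0.28 to 0.48. The response was higher in Colo205 than in HCT116 in 3 genes, with 15.1% of all genes called, 7.82% higher and 7.26% lower: PFKFB3 at 0.36, ADM at 0.93 and EGLN3 at 0.75.

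ML-792, a second inhibitor of the same enzyme, was compared with TAK-981 at the same 1 µM and 16 h in 3 lines, in 28 pairs of gene and line. ML-792 against DMSO called 0 of 9 genes in HCT116, where 11.3% of all genes were called, 5.99% higher and 5.27% lower. It called 4 of 9 in Colo205, 2 higher and 2 lower, where 41.8% of all genes were called, 20.9% higher and 20.8% lower. In MDA-MB-231 it called 6 of 10, all lower, where 22.6% were called, 11.6% higher and 11% lower. Groups without overlap on scaled counts made up 33.1% of all genes tested in HCT116, 50.3% in Colo205 and 38% in MDA-MB-231. Of the tested members, 1 lay all above and 3 all below DMSO in HCT116, 4 and 3 in Colo205, and 0 and 7 in MDA-MB-231. In HCT116 DESeq2 also called 0 with ML-792, limma on FPKM called 1, and 3 genes had an unadjusted p under 0.05. The 4 genes called in Colo205 and the 6 in MDA-MB-231 were also called in the same direction with TAK-981, in comparisons that share the DMSO libraries. Directly compared by edgeR without the replicate block, TAK-981 and ML-792 differed in 0 of the 28 pairs. Of all genes 0.0481%, 0.00707% and 0.0215% were called in HCT116, Colo205 and MDA-MB-231. DESeq2 and limma called 0 of the pairs for which they gave a value, which were not all 28. PFKFB4 in Colo205 had a value in 5 alternative settings, and ANKRD37 in HCT116 and Colo205 in 7 each, where pairs such as PDK1 in HCT116 had 8. In MDA-MB-231 the genes called were 0.0143% higher and 0.00716% lower. The lowest adjusted p was 0.339, and 5 pairs had an unadjusted p under 0.05. Estimates ran from -0.21 to 0.20 on the log2 scale and the intervals from -0.86 to 0.44, both extremes of the intervals belonging to PFKFB4 in Colo205. Those 5 were LDHA, VEGFA, EGLN3 and CA9 in Colo205, at -0.16, 0.20, 0.20 and -0.18, and EGLN3 in MDA-MB-231, at -0.20. A p above the threshold does not show that the compounds act alike.

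**Figure D4:**
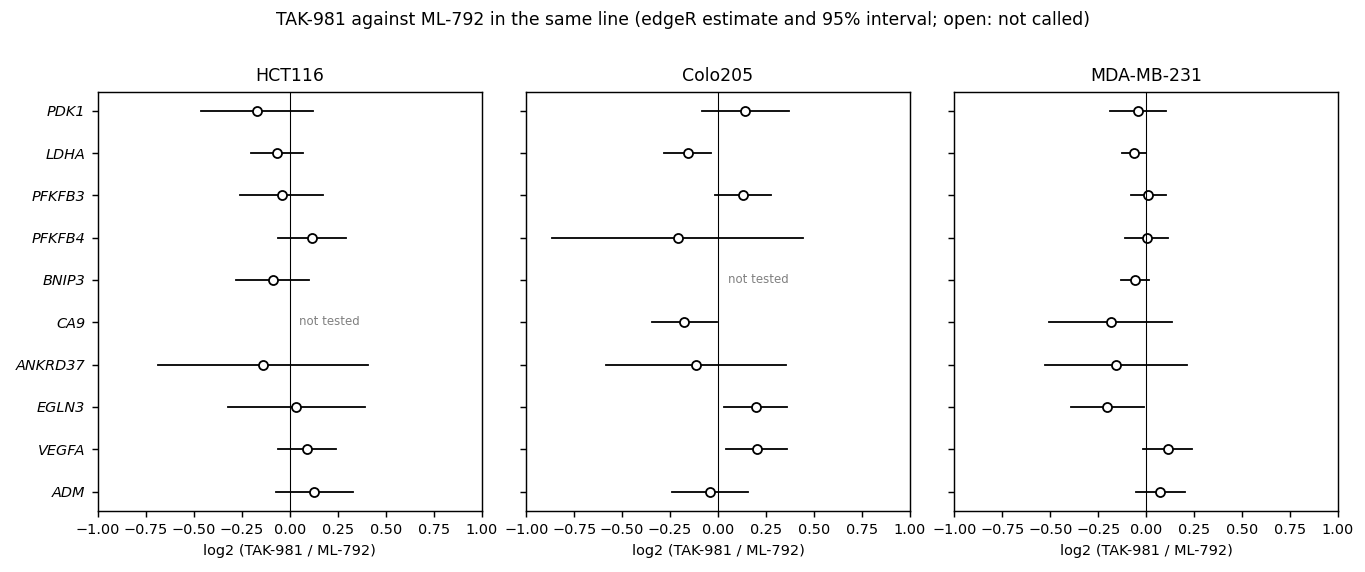
Log2 ratio of TAK-981 to ML-792 with its 95% interval for each gene in the 3 lines that received both; open points were not called. All 28 estimates lie between -0.21 and 0.20, and the wide intervals belong to the genes with few counts, PFKFB4 in Colo205 and ANKRD37.

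Same-numbered libraries of Colo205 deviated together among genes of at least 50 CPM. Over all genes their correlations ran from -0.04 to 0.14, with 2 of 9 pairs above 0.1. In Colo205 the fit with the replicate block called 2 of the 9 genes between the compounds, with 4.41% of all genes called. VEGFA was higher with TAK-981 than with ML-792, at 237 against 206 scaled CPM. The log2 difference was 0.21 (edgeR with the block, adjusted p = 0.011), and without the block it was 0.20 at adjusted p = 0.339. LDHA was lower with TAK-981 than with ML-792, at 567 against 633 scaled CPM and a log2 difference of -0.16 (edgeR with the block, adjusted p = 0.0256). Both were also called without the block when ML-792 replicate 2 was left out, at adjusted p of 0.00973 and 0.0449. That library had 73.6 FPKM of VEGFA, against 60.2 and 60.8 in the other ML-792 libraries.

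Around these genes, 20 enzymes and transporters of the glycolytic route were counted. With TAK-981, 13 of 20 fell and 2 rose in THP-1, 1 fell and 2 rose of 20 in HCT116, 7 fell and 3 rose of 18 in Colo205, and 14 of 20 fell and 0 rose in MDA-MB-231. The shares of all genes that fell were 33.9%, 6.73%, 18% and 9.52% in the same order. Median changes were -0.51, 0.02, -0.07 and -0.19, and those of all genes were within 0.03 of 0. Names were taken by the lowest adjusted p of each list. In THP-1 the lactate exporter SLC16A3 rose by 1.83 (SE 0.0696, edgeR adjusted p = 6.34e-11), while TPI1, GPI and HK2 fell, at -1.13, -1.11 and -0.92. SLC16A3 also rose in HCT116, at 0.64, where HK2, the first kinase of the route, fell at -0.31. In Colo205 the glucose importer SLC2A1 fell to 44.7 ± 5.82 FPKM with TAK-981, against 76.2 ± 5.46 FPKM with DMSO (SD, n = 3 each; log2 change -0.79, edgeR adjusted p = 2.12e-05), and the enolase ENO2 rose, at 0.48. In MDA-MB-231 ENO2, PGAM1, PGK1 and PFKP all fell, between -0.47 and -0.27. ML-792 gave 1 of 20 lower and 2 higher in HCT116, 6 of 18 lower and 3 higher in Colo205, and 15 of 20 lower and 1 higher in MDA-MB-231. Of all genes 5.27% were lower and 5.99% higher with ML-792 in HCT116, 20.8% and 20.9% in Colo205, and 11% and 11.6% in MDA-MB-231.

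Genes of the oxygen sensing machinery were called in both directions. HIF1A, the alpha subunit of HIF-1, stood at 25.4 ± 1.48 FPKM with TAK-981 in THP-1, against 10.9 ± 0.563 FPKM with DMSO (SD, n = 3 each), a log2 change of 1.01 (edgeR adjusted p = 2.23e-08). In MDA-MB-231 it fell to 71.1 ± 1.73 FPKM with TAK-981 and 74.4 ± 0.834 FPKM with ML-792, against 98.7 ± 5.34 FPKM with DMSO (SD, n = 3 each), at -0.48 and -0.42. It also fell in HCT116 with TAK-981, at -0.39 (edgeR adjusted p = 0.0102), and in Colo205 with ML-792, at -0.22 (edgeR adjusted p = 0.0183), but was not called there with TAK-981, at 0.06. EPAS1, the alpha subunit of HIF-2, fell in HCT116 and Colo205, at -0.46 and -0.32 with TAK-981, and rose in MDA-MB-231, at 0.51. VHL and RBX1, parts of the ligase that removes HIF-alpha, fell in THP-1, at -0.65 and -1.13. Of the whole list of 13, TAK-981 raised 4 and lowered 5 of 11 tested in THP-1, raised 1 and lowered 3 of 12 in HCT116, raised 3 and lowered 2 of 12 in Colo205, and raised 1 and lowered 4 of 12 in MDA-MB-231. Over all genes 35.5% rose and 33.9% fell in THP-1, 7.66% and 6.73% in HCT116, 17.9% and 18% in Colo205, and 10.6% and 9.52% in MDA-MB-231. List medians were -0.07, -0.14, 0.04 and 0.01.

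**Figure D5:**
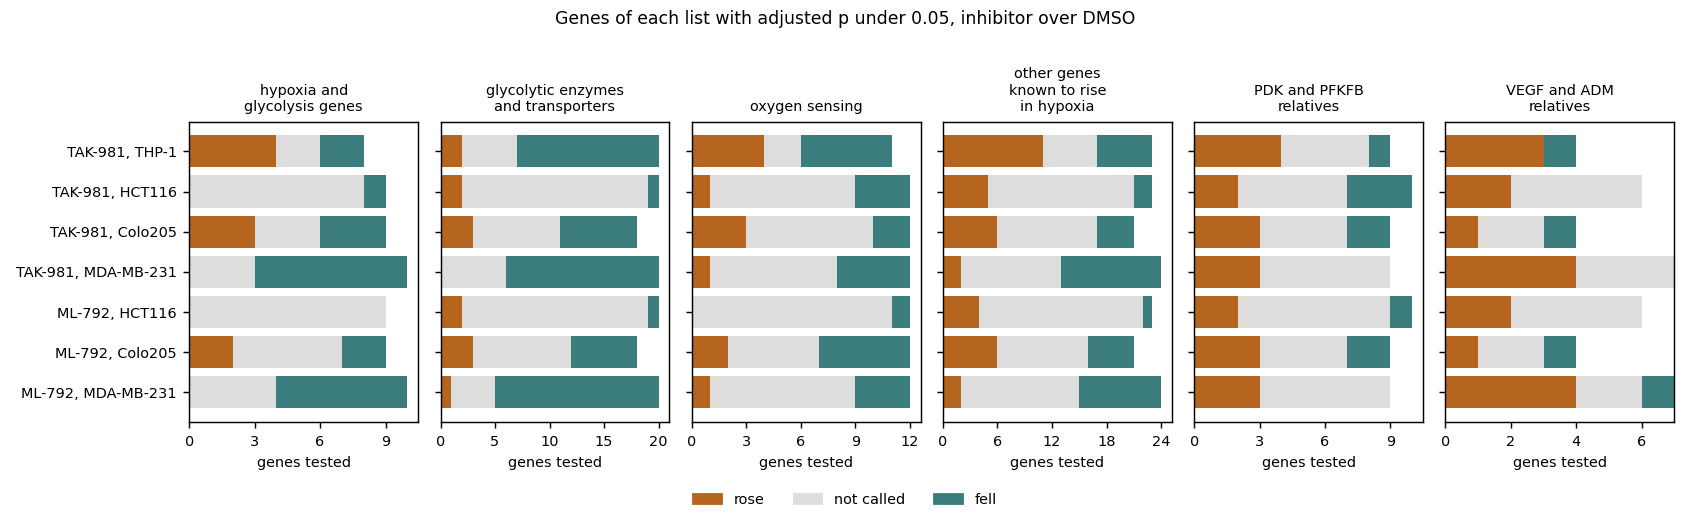
Numbers of tested genes in each list that rose, were not called or fell over DMSO, for each compound and line. Glycolytic enzymes and transporters show 13 and 14 lower genes with TAK-981 in THP-1 and MDA-MB-231, against 1 in HCT116.

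A list of 24 further genes known to rise in hypoxia gave different counts in each line. With TAK-981 it gave 11 higher and 6 lower of 23 in THP-1, 5 and 2 of 23 in HCT116, 6 and 4 of 21 in Colo205, and 2 higher and 11 lower of 24 in MDA-MB-231, with medians of 0.28, 0.11, 0.00 and -0.12. Of all genes, 35.5% were higher and 33.9% lower in THP-1, a larger share lower than in the list, against 7.66% and 6.73% in HCT116, 17.9% and 18% in Colo205, and 10.6% and 9.52% in MDA-MB-231. KDM3A, a histone demethylase, rose in THP-1, HCT116 and Colo205, at 1.33, 0.48 and 0.76, and was not called in MDA-MB-231, at -0.05. ANGPTL4, a secreted regulator of lipoprotein lipase, rose in HCT116 at 0.79 and in MDA-MB-231 at 1.70. In Colo205 it stood at 0.721 to 1.23 FPKM with TAK-981, against 0 to 0.0780 FPKM with DMSO, and a fitted fold against so low a level depends on the prior count. DDIT4, an inhibitor of mTORC1 signalling, rose in THP-1 and HCT116, at 1.73 and 0.56, and fell in Colo205 and MDA-MB-231, at -1.11 and -0.13. In MDA-MB-231 the lysyl oxidase LOX, INSIG2 and the collagen prolyl hydroxylase subunit P4HA1 fell, at -0.56, -0.39 and -0.28. CA12, the relative of CA9, fell with TAK-981 in Colo205 at -1.52 and in HCT116 at -1.07.

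Among the relatives of PDK1 and the PFKFB enzymes, PDK4, another pyruvate dehydrogenase kinase, rose with TAK-981 in all 4 lines. It stood at 9.27 ± 0.333 FPKM with TAK-981 and 9.18 ± 1.39 FPKM with ML-792 in Colo205, against 0.367 ± 0.0373 FPKM with DMSO (SD, n = 3 each). PDK1 fell there and in MDA-MB-231. The log2 changes of PDK4 with TAK-981 were 2.84 in THP-1, 0.84 in HCT116, 4.60 in Colo205 and 1.66 in MDA-MB-231, at edgeR adjusted p of 2.53e-08, 0.00539, 4.45e-11 and 3.66e-06. PDP1, a phosphatase that reverses the action of these kinases, rose in the same 4 lines, at 1.41, 0.30, 1.38 and 0.53. The 10 relatives gave 4 higher and 1 lower of 9 tested in THP-1, 2 and 3 of 10 in HCT116, 3 and 2 of 9 in Colo205, and 3 and 0 of 9 in MDA-MB-231, with medians of 0.24, -0.02, -0.01 and 0.03. The shares of all genes higher and lower were 35.5% and 33.9%, 7.66% and 6.73%, 17.9% and 18%, and 10.6% and 9.52% in those lines.

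The list of VEGF family ligands, their receptors and the adrenomedullin receptor parts passed the count filter in part, with 4, 6, 4 and 7 of 11 tested in THP-1, HCT116, Colo205 and MDA-MB-231. NRP1, a co-receptor for VEGFA, rose with TAK-981 in all 4 lines, at 0.91, 1.02, 0.55 and 0.66. PGF, the placental growth factor, rose in HCT116 at 0.49 and in MDA-MB-231 at 1.05, and in THP-1 stood at 0.611 to 1.30 FPKM with TAK-981, against 0.0294 to 0.119 FPKM with DMSO. VEGFB fell in THP-1, at -1.47. TAK-981 raised 3 and lowered 1 of the 4 tested there, raised 2 of 6 in HCT116, raised 1 and lowered 1 of 4 in Colo205, and raised 4 of 7 in MDA-MB-231, with medians of 1.65, 0.00, 0.11 and 0.25. Of all genes 69.4%, 14.4%, 35.9% and 20.2% were called in those lines in either direction.

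Across the 33 libraries the levels of some of the genes ran together and others ran opposite. The Pearson correlation of log2 CPM was 0.95 between BNIP3 and PFKFB4, 0.94 between VEGFA and CA9 and 0.93 between EGLN3 and CA9, but -0.55 between PFKFB4 and CA9 and -0.42 between BNIP3 and CA9. These values are descriptions over 4 lines that each share a genotype and preparation, so most of the spread is between lines. Of 10419 other genes with a mean of 5 CPM or more, those most like each were GALNT11 and POLH for BNIP3, at 0.99 for each, ZMYND8 and SPPL3 for CA9, at 0.99 and 0.98, and VWA1 and LRRC8E for ADM, at 0.99 for each. CDCA4 and PCBP4 were nearest to PFKFB4, TANC2 and ITSN1 to PFKFB3, USP14 and MCFD2 to LDHA, LRRC8A and ATP9B to VEGFA, and RABGAP1 and ATP8B1 to EGLN3, at 0.98 or 0.99. PDK1 and ANKRD37 had looser neighbours, ARF6 and ANKRD13A at 0.94 for each, and AURKA and MASTL at 0.95 and 0.94.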

How the data were processed

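PolyA RNA of 33 human cultures was sequenced on an Illumina NovaSeq in paired reads, per the labels' protocols. The deposited tables give, for each library, an expected count per gene and an FPKM value as the authors computed them. Not given in the sources used here are the aligner, the counter, the genome build and whether strand was used. Mouse libraries of the series were not used. The genes, lists and tests were chosen with earlier results of these data known.

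Expected counts were rounded to whole numbers and fitted per line with edgeR 4.0.16 (R 4.3.3) by its quasi-likelihood F-test, after filterByExpr with a count minimum of 10 and a total minimum of 15, TMM scaling and Benjamini-Hochberg adjustment over all genes tested; genes were called at an adjusted p under 0.05. One fit of all 33 libraries tested differences between lines, for which DESeq2, limma and the replicate block were not run. The model scripts were tested on simulated data. Alternatives were relative log expression scaling, no count filter, removal of 37 mitochondrially encoded genes, DESeq2 1.42.0, limma 3.58.1 on log2(FPKM + 0.1) and log2(FPKM + 1) for genes with a mean FPKM of at least 0.5, only the 2 groups compared, a replicate block, and leaving out each library. Genes with fractional values hold 18.5% to 25.2% of the counts. Intervals on ratios of few counts are exact and cover counting error only.

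The text names all 10 genes in every comparison with DMSO, those of lowest p where the compounds are compared, up to 4 genes of each other list with the lowest adjusted p, and the 2 genes most like each by Pearson correlation of log2 CPM (prior count 2). Replicate numbers were taken to pair libraries where the deviations from group means of every same-numbered pair correlated above 0.1 among genes of at least 50 CPM. In Colo205 all 9 such pairs did, at 0.27 to 0.59, and in MDA-MB-231 the 3 pairs of TAK-981 and DMSO did, at 0.38 to 0.58. In HCT116 3 of 9 did. The level of 50 CPM was chosen after the same correlations over all genes tested were seen. There only 2 of 9 pairs passed in Colo205 and in MDA-MB-231, so over all genes no line had every pair above 0.1. In Colo205 these values ran from -0.04 to 0.14. A value under 0.1 does not show that cultures were unpaired. The calls of the fits had not been compared then. Differently numbered libraries also passed 0.1 at 50 CPM. ML-792 replicate 1 and DMSO replicate 3 of HCT116 correlated at 0.59, and ML-792 replicate 3 and DMSO replicate 1 of MDA-MB-231 at 0.31. In Colo205 the highest value for different numbers was 0.08. A correlation above 0.1 therefore does not by itself show that the numbers pair cultures. KDM3A and DDIT4 in MDA-MB-231 and HIF1A in Colo205, each with TAK-981, lie outside that rule and were added after their values were seen.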

Additional observations from a re-analysis of the deposited data

Results flagged for a closer look

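For 8 of the 10 genes the response to TAK-981 differed between the 4 human lines by edgeR's test of the difference itself, adjusted over 17473 genes, of which 59.3% were called. The adjusted p was 3.84e-15 for PFKFB4, 5.04e-13 for ADM, 4.5e-10 for BNIP3, 3.15e-09 for PFKFB3, 7.15e-07 for EGLN3, 5.17e-06 for LDHA, 7.71e-05 for PDK1 and 0.000605 for ANKRD37. PFKFB4 had log2 changes of 1.52 in THP-1 and -0.51 in MDA-MB-231, higher and lower than DMSO in all 3 libraries of each. EGLN3 and ADM had few counts in THP-1, with 25 and 147 over the 3 TAK-981 libraries, against 8 and 1 over the DMSO libraries. BNIP3 had few counts in Colo205, with 19 over the TAK-981 libraries against 18 over the DMSO libraries, as had PFKFB4, with 57 against 42. EGLN3 in THP-1 and BNIP3 in Colo205 were below the count filter of their own line. For THP-1 the line and its culture plate format cannot be told apart.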

How the results depend on the processing

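Of 30 called results 26 were called under every setting run; the exceptions were VEGFA in THP-1 and Colo205, LDHA in HCT116 and ANKRD37 in MDA-MB-231 with TAK-981. Of 1263 values under other settings 36 had the other sign, in 16 results, and 0 of these were called by edgeR in the reported fit or under that setting. With TAK-981 in HCT116, 1 gene was called, against 2 with DESeq2, 0 with the replicate block (LDHA at adjusted p = 0.051), 0 with only the 2 groups compared, and 0 to 1 leaving out each library. With ML-792 in HCT116, 0 were called, against 1 with limma on FPKM at each pseudocount and 1 with only the 2 groups compared. Between TAK-981 and ML-792 in Colo205, 0 were called, against 2 with the replicate block and 0 to 2 leaving out each library. No paired analysis was possible because the THP-1 groups share no replicate numbers; this holds for that line alone. HCT116 libraries share numbers only. The counts of 8 genes whose response and 10 whose DMSO level differed between lines did not move under the settings run for them. These were relative log expression scaling, no count filter, removal of mitochondrially encoded genes, only the libraries compared, and leaving out a library. DESeq2, limma on FPKM and the replicate block were not run for these counts. Causes of these shifts were not tested.

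On the log2 FPKM scale, with pseudocounts of 0.1 and 1, PDK1 in THP-1 with TAK-981 was 0.0698 and 0.0514, and ADM in MDA-MB-231 with TAK-981 was -0.00755 and -0.00736. EGLN3 in MDA-MB-231 with ML-792 was 0.20 and 0.18, and PFKFB4 in MDA-MB-231 between TAK-981 and ML-792 was -0.00087 and -0.00079, and -0.00025 with only those groups fitted. Leaving out each library, log2 changes with TAK-981 spanned -0.17 to 0.0235 for ADM in HCT116 and -0.0248 to 0.0742 for ADM in MDA-MB-231. With ML-792 they spanned -0.11 to 0.11 for PDK1 and -0.19 to 0.0169 for EGLN3 in HCT116, and -0.0288 to 0.13 for VEGFA in Colo205. In MDA-MB-231 they spanned -0.0350 to 0.0922 for VEGFA, -0.0978 to 0.00099 for ADM and -0.0955 to 0.0770 for EGLN3. Between TAK-981 and ML-792 they spanned -0.13 to 0.0783 for PFKFB3, -0.00777 to 0.19 for ADM and -0.0768 to 0.13 for EGLN3 in HCT116, and -0.12 to 0.0529 for ADM in Colo205. In MDA-MB-231 they spanned -0.11 to 0.0277 for PDK1, -0.0251 to 0.0343 for PFKFB4 and -0.0144 to 0.0333 for PFKFB3.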
